A study of Homo sapiens with 10 samples.

Results

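The genes HOXB13, AGR2, HERC3, EGFR, DST and ETV5 were read across clones of PC-3, an established human line from a prostate cancer metastasis to bone. They are 6 of the 14884 genes with a named probe set on the array. HOXB13, AGR2 and HERC3 were grouped as luminal and androgen-linked, EGFR and DST as basal, and ETV5 as an ETS transcription factor. These groupings are labels and do not show a luminal or basal state of the clones. The genes were chosen by their measured difference between CENPU and empty-vector clones, so their values in that contrast are a description without a test. Each had 1 named row, so the choice of the brightest row per gene left nothing out, and all 6 are accounted for below.

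RNA came from 5 PC-3 clones carrying CENPU in a lentiviral vector (numbers 1, 4, 5, 7 and 13) and 5 control clones carrying the empty vector (numbers 1 to 5). All had passed blasticidin selection, and each is a clonal isolate of 1 line with 1 array. CENPU encodes a subunit of the inner kinetochore. CENPU itself averaged 9.34 ± 0.43 in CENPU clones and 6.26 ± 0.29 in control clones (SD, n = 5 each, log2 values), with no overlap. Whether expression was driven evenly in every cell of a clone is not given in the labels, and fewer cells expressing a gene cannot be told apart from less RNA per cell.

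In the prostate gland, luminal cells secrete under the control of androgens, and basal cells anchor the epithelium to the basement membrane. HOXB13 is a homeodomain transcription factor that marks the prostate epithelium. EGFR is the receptor tyrosine kinase for EGF-like ligands. Its signal runs through ERK, which raises the PEA3 factors ETV1, ETV4 and ETV5.

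Start regions were taken from RefSeq (GRCh38.p14), from 250 bases before to 50 bases after each annotated start. AGR2, EGFR, DST and HERC3 matched by symbol, with 8 start regions between them. The 5 shown contrast the AGR2 start with the alternative starts of EGFR and DST, genes for which 1 array row cannot say which start was in use. Capitals mark any match, on either strand, to the ETS core CGGAAG, the steroid receptor half-site AGAACA, the FOXA core TGTTTAC, the HOXB13 core CCAATAAA or the TATA box TATAAA. No matches overlapped.
AGR2, chr7:16804950-16805249, minus strand: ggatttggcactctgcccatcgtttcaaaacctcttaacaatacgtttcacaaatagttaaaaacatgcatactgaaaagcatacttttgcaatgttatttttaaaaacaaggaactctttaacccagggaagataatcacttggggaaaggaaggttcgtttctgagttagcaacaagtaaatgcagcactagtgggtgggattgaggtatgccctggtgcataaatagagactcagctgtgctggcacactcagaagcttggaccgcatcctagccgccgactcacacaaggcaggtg
EGFR, chr7:55018767-55019066, plus strand: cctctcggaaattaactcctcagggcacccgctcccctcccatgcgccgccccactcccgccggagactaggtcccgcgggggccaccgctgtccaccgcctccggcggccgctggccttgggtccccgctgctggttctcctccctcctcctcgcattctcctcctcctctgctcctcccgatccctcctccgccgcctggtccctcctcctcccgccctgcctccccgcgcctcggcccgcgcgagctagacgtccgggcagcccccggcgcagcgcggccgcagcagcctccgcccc
EGFR, chr7:55109589-55109888, plus strand: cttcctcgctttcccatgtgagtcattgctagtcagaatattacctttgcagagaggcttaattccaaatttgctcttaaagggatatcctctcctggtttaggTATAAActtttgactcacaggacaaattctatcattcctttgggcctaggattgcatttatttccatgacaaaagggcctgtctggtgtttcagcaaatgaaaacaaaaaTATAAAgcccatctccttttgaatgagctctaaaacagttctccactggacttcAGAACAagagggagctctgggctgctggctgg
DST, chr6:56954781-56955080, minus strand: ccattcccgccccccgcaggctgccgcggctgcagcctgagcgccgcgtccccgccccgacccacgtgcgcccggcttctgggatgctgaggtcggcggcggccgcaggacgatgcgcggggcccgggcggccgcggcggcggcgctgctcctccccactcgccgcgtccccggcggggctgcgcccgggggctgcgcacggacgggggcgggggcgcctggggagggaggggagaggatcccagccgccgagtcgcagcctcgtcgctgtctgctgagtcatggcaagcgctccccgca
DST, chr6:56851856-56852155, minus strand: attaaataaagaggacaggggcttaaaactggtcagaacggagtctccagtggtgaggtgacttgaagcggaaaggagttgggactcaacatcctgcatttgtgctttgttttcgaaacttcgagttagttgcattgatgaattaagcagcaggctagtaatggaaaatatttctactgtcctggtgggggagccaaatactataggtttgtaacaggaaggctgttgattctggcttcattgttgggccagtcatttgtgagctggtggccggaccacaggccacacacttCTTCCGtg

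The AGR2 start region had 43.7% G and C and 6 CpG pairs, below the median of 58.7% and 14 over 35116 start regions. The upstream EGFR region (75.3%, 33 CpG) and the upstream DST region (80.0%, 45 CpG) lay above it, while the inner EGFR region (42.0%, 1 CpG) and the inner DST region shown (46.3%, 6 CpG) lay below. A further inner DST region, not printed, had 39.3% G and C, 3 CpG pairs and no match. The inner EGFR region held 2 matches to the TATA box and 1 to AGAACA, and the inner DST region 1 to the ETS core. Of all start regions, 11.5% held the TATA box letters, 14.8% AGAACA, 19.5% the ETS core, 3.42% the FOXA core and 0.934% the HOXB13 core. The HERC3 start regions, not printed, had 73.3% and 71.7% G and C and no match. Base composition thus differed among the starts, and a match is only a match of letters.

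All 6 genes were higher in CENPU clones, and for each the lowest CENPU clone stood above the highest control clone. The log2 differences fell into a smaller set, HOXB13 (0.42), AGR2 (0.50) and ETV5 (0.54), and a larger one, EGFR (0.87), HERC3 (0.92) and DST (0.93). Across all genes the median was -0.02, and the differences of HOXB13 and DST stood at percentiles 86.1 and 97.2. For reading these counts, 4.54% of all genes were higher in CENPU clones with no overlap of the groups, and 5.31% were higher at a limma adjusted p under 0.05. All 6 belonged to both sets, which follows from how they were picked.

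HOXB13 read 11.23, 11.12, 11.16, 11.26 and 11.64 in CENPU clones 1, 4, 5, 7 and 13, against 10.87, 11.00, 10.75, 10.86 and 10.83 in control clones 1 to 5 (log2 values). CENPU 13 stood apart from the other CENPU clones, and the narrowest gap between the groups was 0.13, from CENPU 4 down to control 2. The means were 11.28 ± 0.21 in CENPU clones and 10.86 ± 0.09 in control clones (SD, n = 5 each), a 1.34-fold difference. On the log2 scale this is 0.42 (limma standard error 0.11), or 0.33 without CENPU 13. Control 2 was the highest control here, whereas it was the lowest for EGFR, DST and ETV5.

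AGR2 encodes a secreted and endoplasmic reticulum protein of the disulfide isomerase family that is made by mucus-secreting and luminal cells. Its row read 4.68, 4.57, 4.83, 4.91 and 4.88 in CENPU clones 1, 4, 5, 7 and 13, against 4.35, 4.18, 4.17, 4.30 and 4.36 in control clones 1 to 5. The groups were separated by 0.21, and the CENPU values lay within 0.33 of each other. The row was dim. The medians of whole arrays were 4.62 to 4.76, so the control clones lay below the middle of the array and the CENPU clones around it. The means were 4.77 ± 0.14 in CENPU clones and 4.27 ± 0.09 in control clones (SD, n = 5 each), 1.41-fold, and background can compress the fold of so dim a row.

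HERC3 encodes a HECT-domain ubiquitin ligase with an RCC1-like repeat domain. It read 5.68, 5.07, 5.41, 6.09 and 5.75 in CENPU clones 1, 4, 5, 7 and 13, against 4.66, 4.66, 4.32, 4.88 and 4.89 in control clones 1 to 5. This was the most variable of the 6 among CENPU clones, with a range of 1.02, and CENPU 4 came within 0.17 of control 5. The means were 5.60 ± 0.38 in CENPU clones and 4.68 ± 0.23 in control clones (SD, n = 5 each), 1.89-fold. The control clones read around the array medians of 4.62 to 4.76, so background can compress this fold.

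EGFR read 7.57, 7.82, 7.32, 7.97 and 7.78 in CENPU clones 1, 4, 5, 7 and 13, against 6.95, 6.42, 6.95, 6.75 and 7.04 in control clones 1 to 5. CENPU 5 was the lowest CENPU clone and control 2 the lowest of all, and 0.28 lay between the groups. The means were 7.69 ± 0.25 in CENPU clones and 6.82 ± 0.25 in control clones (SD, n = 5 each), 1.83-fold, so both groups had a like spread.

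DST encodes dystonin, a plakin that links intermediate filaments to hemidesmosomes in basal epithelium and has other isoforms in nerve and muscle. Its row read 5.48, 5.62, 6.02, 5.85 and 6.44 in CENPU clones 1, 4, 5, 7 and 13, against 5.02, 4.73, 5.17, 4.82 and 5.04 in control clones 1 to 5. The gap between the groups, 0.31, was the widest of the 6 genes. The means were 5.88 ± 0.37 in CENPU clones and 4.96 ± 0.18 in control clones (SD, n = 5 each), 1.90-fold.

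ETV5 is an ETS transcription factor of the PEA3 group. It read 7.57, 7.69, 7.98, 7.83 and 7.99 in CENPU clones 1, 4, 5, 7 and 13, against 7.37, 7.02, 7.15, 7.38 and 7.43 in control clones 1 to 5. CENPU 1 and control 5 were 0.14 apart, the closest approach of the groups. The means were 7.81 ± 0.18 in CENPU clones and 7.27 ± 0.18 in control clones (SD, n = 5 each), 1.46-fold.

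**Figure D1:**
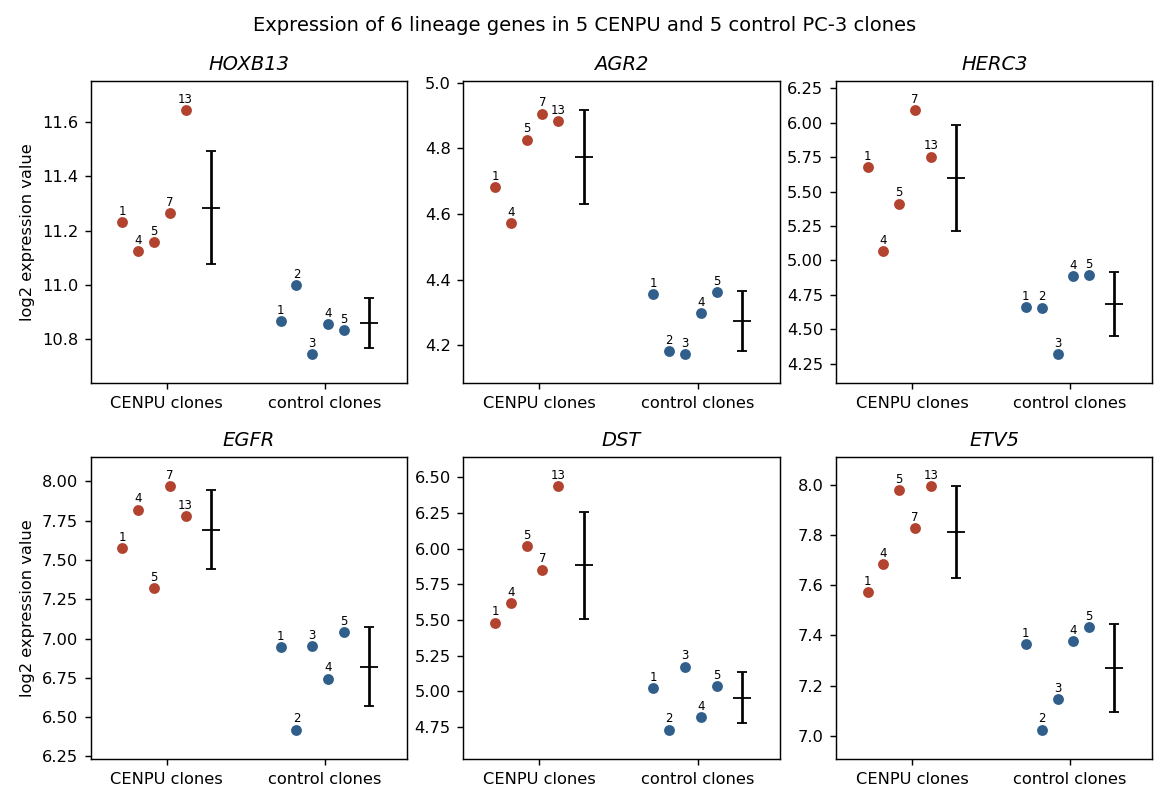
Log2 expression values (vertical axis, a different range in each panel) of HOXB13, AGR2, HERC3, EGFR, DST and ETV5 in 5 CENPU clones and 5 control clones, with clone numbers beside the points and bars for the mean ± SD. In every panel the lowest CENPU clone lies above the highest control clone, by 0.13 for HOXB13 and 0.31 for DST.

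Clones of the same group did not keep 1 order over the 6 genes. CENPU 13 was above its group mean in 6 of 6 genes and CENPU 7 in 4, while CENPU 1 and CENPU 4 were each above it in 1. The highest CENPU clone was CENPU 13 for HOXB13, DST and ETV5, and CENPU 7 for AGR2, HERC3 and EGFR. Among controls, control 5 was the highest for 4 genes, and control 2 and control 3 were each the lowest for 3. EGFR departed from the others, being above its group mean in CENPU 4 and furthest below it in CENPU 5.

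**Figure D2:**
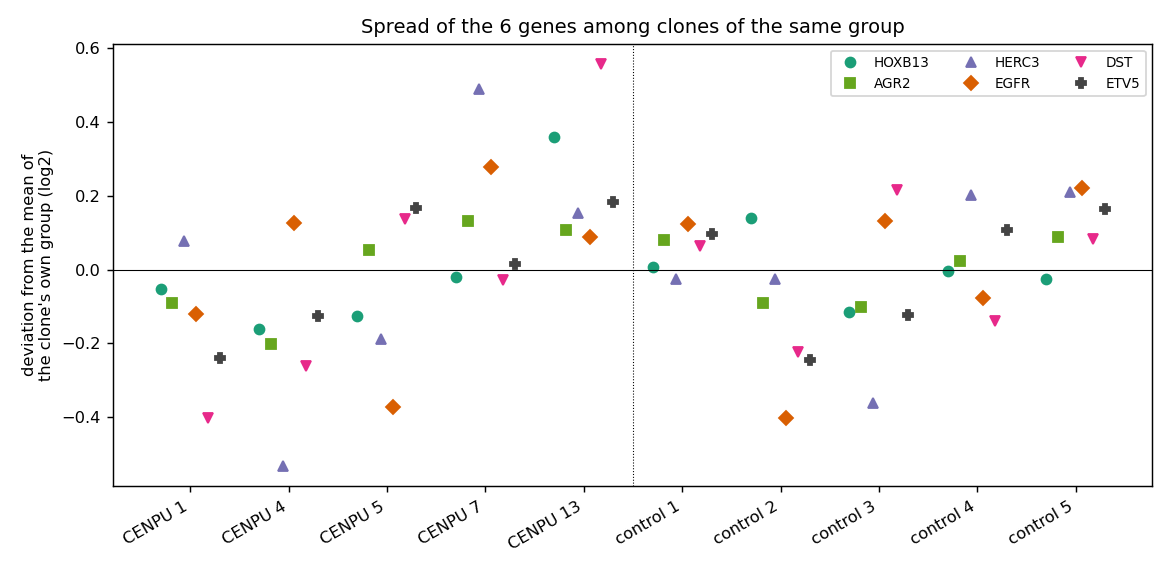
Deviation of each clone from the mean of its own group (log2 units, vertical axis) for HOXB13, AGR2, HERC3, EGFR, DST and ETV5, by clone, with CENPU clones left of the dotted line and control clones right of it. All 6 points of CENPU 13 lie above 0, whereas the EGFR point is above 0 in CENPU 4 and below it in CENPU 5.

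The size of the difference went with the genomic span of the gene, a feature that also went with direction over the whole array. HOXB13 spans 3.99 kb, AGR2 13.2 kb and ETV5 62.8 kb, against 185 kb for HERC3, 193 kb for EGFR and 497 kb for DST. Over 2383 protein-coding genes of the longest quintile the genes centred on a log2 difference of 0.13 (median), and 273 were higher and 41 lower in CENPU clones. Over 2384 genes of the shortest it was -0.11, with 52 higher and 200 lower. HOXB13 belongs to the shortest quintile, where 29.6% of genes had a difference above 0, and AGR2 to the next, where 37.4% did. Within arrays, Spearman's correlation across genes between span and the clone's deviation was highest in CENPU 13 (0.36) and CENPU 7 (0.32) and lowest in control 2 (-0.36), and genes are not independent replicates.

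With a loess trend on span removed from each array, the log2 differences were 0.53 for HOXB13, 0.53 for AGR2, 0.38 for ETV5, 0.65 for EGFR, 0.70 for HERC3 and 0.75 for DST. HOXB13 and AGR2 thus moved up and the 4 longer genes down, and the 6 lay closer together. Without control 2, CENPU 7 and CENPU 13 the differences were 0.35 for HOXB13, 0.40 for AGR2, 0.42 for ETV5, 0.65 for EGFR, 0.70 for HERC3 and 0.69 for DST. The part of RNA quality in this trend was not tested.

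**Figure D3:**
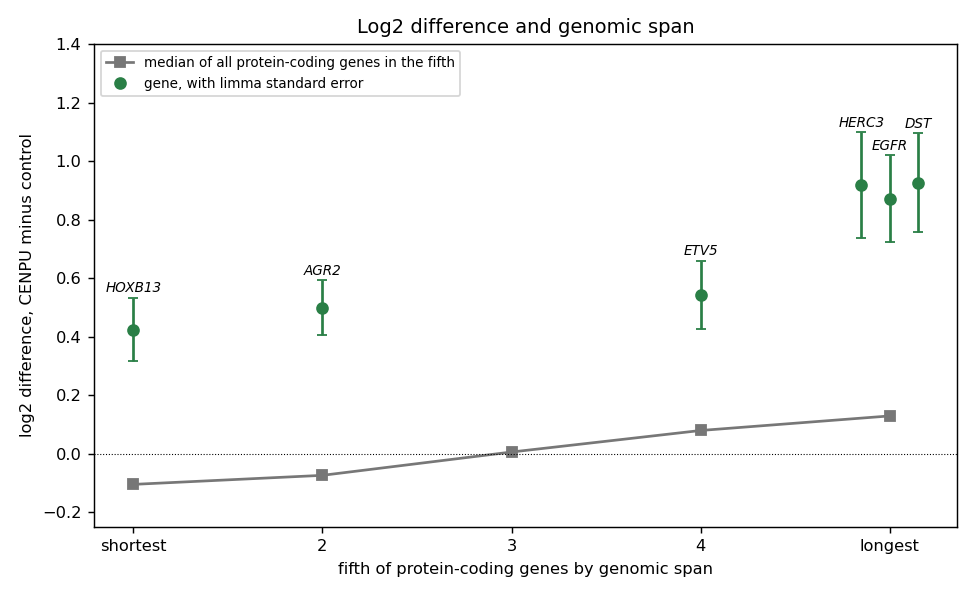
Log2 difference between CENPU and control clones (vertical axis) against the quintile of protein-coding genes by genomic span (horizontal axis), with green points and limma standard errors for the 6 genes and grey squares for the median of all genes in each quintile. The medians run from -0.11 in the shortest to 0.13 in the longest, and the 6 genes lie above them in their own quintiles.

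Other genes of the same lineages were then taken from textbook lists. The 6 genes were left out of all list counts, and genes without a named row, TMPRSS2, TP63 and ERBB2 among them, were not analysed here. Of 205 distinct list genes measured, 7 rose and 3 fell in CENPU clones at a limma adjusted p under 0.05, while 5.31% of all genes were higher and 4.79% lower. An unadjusted limma p under 0.05, counted for some lists below, was reached by 4147 of all 14884 genes in either direction. Such counts are to be read beside that share.

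None of the 21 measured androgen-responsive genes passed in limma. An unadjusted p under 0.05 was reached by 3 higher and 3 lower genes, and the list median was 0.05 on the log2 scale. KLK3, the gene of prostate-specific antigen, averaged 5.57 ± 0.15 in CENPU clones and 5.61 ± 0.13 in control clones (SD, n = 5 each). Its neighbour KLK2 differed by -0.01 on the log2 scale. Without CENPU 1 there were 3 higher and 1 lower, and without CENPU 4 or control 1 there was 1 higher.

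None of 23 measured luminal genes passed in limma, while an unadjusted p under 0.05 was reached by 4 higher and 0 lower genes and the list median was 0.03 on the log2 scale. FOXA1, the pioneer factor of luminal cells, averaged 9.31 in CENPU clones and 9.64 in control clones, a log2 difference of -0.34 with a standard error of 0.16 that did not pass. The luminal keratins KRT8 and KRT18, which have pseudogene copies that the rows may share, differed by -0.03 and -0.21. These named genes do not stand for the list, where 12 of the 23 lay above 0. The 4 higher at an unadjusted p under 0.05 were DPP4 (1.31), EPCAM (0.85), XBP1 (0.41) and CD38 (0.25). Without CENPU 1 there were 2 higher, and without CENPU 7 or control 1 there was 1.

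Of 24 measured genes of the basal list, VIM rose, 0 fell and 23 did not pass, and the list centred on a log2 difference of -0.05. VIM encodes vimentin, the intermediate filament of mesenchymal cells, and is not specific to basal cells. It averaged 8.52 ± 0.18 in CENPU clones and 7.79 ± 0.17 in control clones (SD, n = 5 each), with no overlap (log2 difference 0.74, limma adjusted p = 0.00446). The basal keratins KRT5 and KRT14 differed by 0.05 and -0.31, with no call. In this list 3 higher and 4 lower genes reached an unadjusted p under 0.05. The higher were VIM, ANXA1 (1.14) and AXL (0.42), and the lower TNC (-0.44), JAG2 (-0.38), PDPN (-0.31) and SOX15 (-0.28). Without CENPU 4 there were 2 higher, and without CENPU 1 there was 1 lower.

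None of 15 measured neuroendocrine genes passed in limma, while an unadjusted p under 0.05 was reached by 1 higher and 0 lower genes. Their median log2 difference was -0.06, and summed log2 levels over the list were 80.8 to 83.6 in CENPU clones and 80.8 to 83.2 in control clones. Markers of cells outside the epithelium had few named rows, of which none passed in limma, 0 of them at an unadjusted p under 0.05. The fibroblast genes DCN and LUM summed to 5.35 to 5.94 in CENPU clones and 5.69 to 5.96 in control clones, PECAM1 and VWF of endothelium to 9.13 to 10.4 in CENPU clones and 9.38 to 10.1 in control clones, and LYZ of leukocytes read 3.33 to 4.04 in CENPU clones and 3.44 to 3.73 in control clones.

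**Figure D4:**
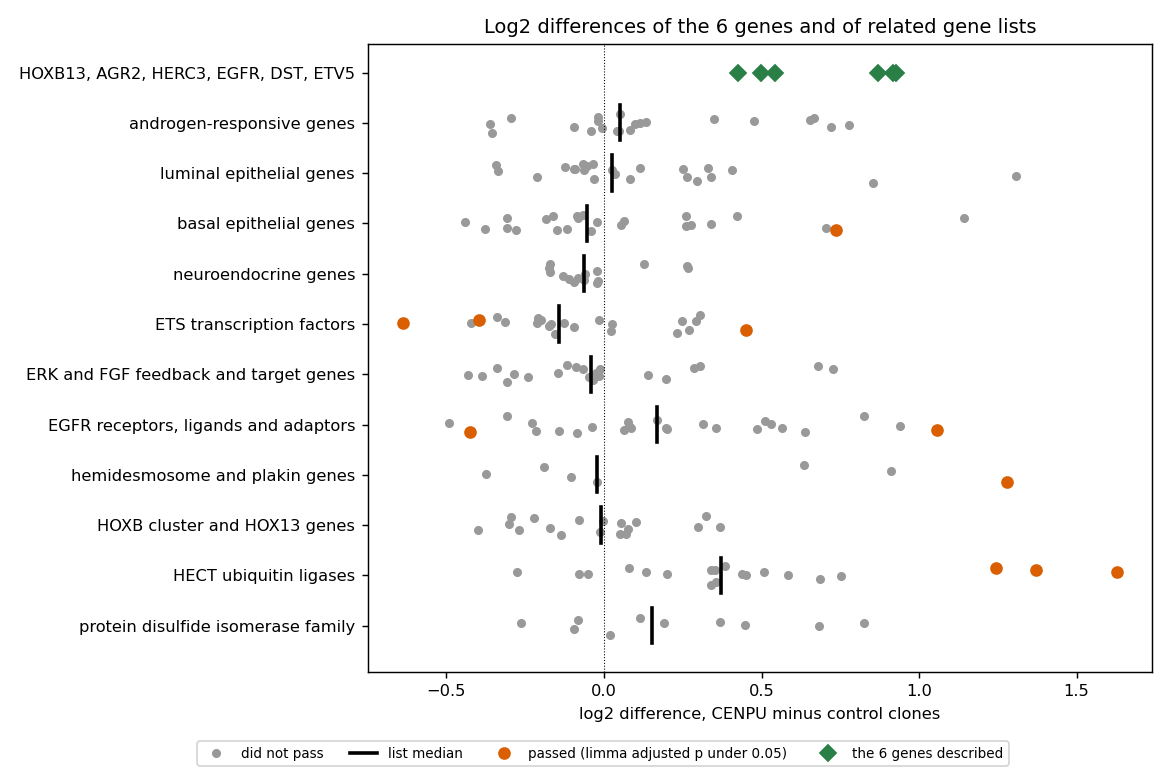
Log2 difference between CENPU and control clones (horizontal axis) for the 6 genes (green diamonds, top row) and for the measured genes of 11 related lists (grey points, or orange where the limma adjusted p was under 0.05), with black bars at list medians. The 6 genes lie between 0.42 and 0.93, while medians of the lists lie between -0.14 for ETS factors and 0.37 for HECT ubiquitin ligases.

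In the HOXB cluster, none of the 9 other HOXB genes passed in limma. HOXB7 differed by -0.30 and HOXB6 by 0.32, with standard errors of 0.09 and 0.18, and the other HOXB genes lay between -0.30 (HOXB1) and 0.07 (HOXB2). HOXB7 fell under quantile normalization, median centring or array weights and without CENPU 1 (limma adjusted p = 0.0231 to 0.0425). MEIS1 and MEIS2, homeodomain partners of HOXB13, differed by 0.10 and 0.30 without a call. Over the 18 measured genes of the cluster, its HOX13 relatives and their cofactors the median was -0.01, while an unadjusted p under 0.05 was reached by 1 higher and 3 lower genes, and without CENPU 1 there was 1 higher and 2 lower.

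The protein disulfide isomerase relatives of AGR2 showed no call in limma among 10 measured, while an unadjusted p under 0.05 was reached by 1 higher and 0 lower genes and the list median was 0.15 on the log2 scale. AGR3, the closest paralog and the neighbouring gene, read 2.54 ± 0.06 in CENPU clones and 2.63 ± 0.06 in control clones (SD, n = 5 each), both far below the array medians. Without CENPU 1 there was 1 higher gene in this list.

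Of 20 other HECT ligases measured, 3 rose, 0 fell and 17 did not pass, and the list centred on a log2 difference of 0.37, with 17 of the 20 above 0. HERC1, a giant relative of HERC3, averaged 7.16 ± 0.54 in CENPU clones and 5.79 ± 0.14 in control clones (SD, n = 5 each), a log2 difference of 1.37 (limma adjusted p = 0.00483). TRIP12 rose by 1.63 (limma adjusted p = 0.00599) and WWP1 by 1.24 (limma adjusted p = 0.0410). HERC2, whose row may share probes with HERC2 pseudogenes, differed by 0.45, HERC4 by 0.34, HERC5 by 0.58 and HERC6 by 0.35, and these did not pass. The list's median span was 128 kb, and its median log2 difference was 0.10 without control 2, CENPU 7 and CENPU 13. WWP1 passed without CENPU 1 or CENPU 4 and lost its call without any other single clone, and without CENPU 1 there were 5 higher. It also did not pass after median centring (limma adjusted p = 0.0573), with all rows in the fit (limma adjusted p = 0.0580) or without control 2, CENPU 7 and CENPU 13 (log2 difference 0.61, limma adjusted p = 0.207). HERC1 differed by 0.90 with the mean of its rows and still passed (limma adjusted p = 0.00343).

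Around EGFR, 1 of 25 measured receptors, ligands and adaptors rose, 1 fell and 23 did not pass, and the list centred on a log2 difference of 0.17. EPS15, an adaptor in EGFR endocytosis, averaged 7.43 ± 0.61 in CENPU clones and 6.37 ± 0.15 in control clones (SD, n = 5 each), a log2 difference of 1.06 (limma adjusted p = 0.0221). NRG2, a neuregulin ligand of ERBB3 and ERBB4, fell by 0.43 (limma adjusted p = 0.0323). Among ligands of EGFR itself, HBEGF differed by -0.49, BTC by 0.36, EREG by 0.20, EGF by 0.08 and EPGN by 0.08, and ERBB3 by 0.17, with no call. The ligands TGFA and AREG had no named row. EREG, EGF and EPGN averaged below the array medians of 4.62 to 4.76 in both groups, as did BTC in control clones (4.30), so background can compress these differences.

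Both calls changed when single clones were left out. EPS15 did not pass without control 2 (limma adjusted p = 0.0558) or control 4 (limma adjusted p = 0.0513), and NRG2 did not without CENPU 5, CENPU 7, control 2, control 3, control 4 or control 5 (limma adjusted p = 0.0578 to 0.0799). With control 2, CENPU 7 and CENPU 13 left out together neither passed, at log2 differences of 0.61 for EPS15 (limma adjusted p = 0.0814) and -0.46 for NRG2 (limma adjusted p = 0.0807). With the span trend removed NRG2 fell by 0.64 (limma adjusted p = 0.0116). Without CENPU 1 there were 4 higher and 2 lower in this list, and without CENPU 4 there were 2 and 2. The list median was 0.048 without control 2, CENPU 7 and CENPU 13.

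Genes induced by ERK and FGF signalling, ETV5 left aside, showed no call in limma among 22 measured, while an unadjusted p under 0.05 was reached by 3 higher and 2 lower genes. Their median log2 difference was -0.04, and 6 of the 22 had a difference above 0. ETV4 averaged 9.96 in CENPU clones and 9.97 in control clones, and ETV1 differed by 0.31 with a standard error of 0.17. At the adjusted threshold there were 2 higher without CENPU 1, there was 1 higher and 1 lower without CENPU 4, 1 higher without CENPU 5, and 1 lower without control 1.

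Among 22 other ETS factors, ETV3 rose, ETV2 and ELF4 fell, and 19 did not pass, and the list centred on a log2 difference of -0.14. ETV3, a repressor of the family, averaged 7.00 ± 0.10 in CENPU clones and 6.54 ± 0.13 in control clones (SD, n = 5 each), a log2 difference of 0.45 (limma adjusted p = 0.0143). ELF4 fell by 0.64 (limma adjusted p = 0.0370) and ETV2 by 0.40 (limma adjusted p = 0.0310). ERG, the ETS gene most often rearranged in prostate cancer, differed by -0.34 and did not pass, but fell by 0.55 with the span trend removed (limma adjusted p = 0.0449). ELF4 lost its call without CENPU 7, CENPU 13 or any 1 control, and ETV2 without CENPU 5, CENPU 7, control 2, control 3 or control 4 (limma adjusted p = 0.0553 to 0.0841). Without control 2, CENPU 7 and CENPU 13 none of ETV3, ETV2 and ELF4 passed (limma adjusted p = 0.103, 0.157 and 0.173). ELF4 also lost its call with all rows in the fit (limma adjusted p = 0.0518), and ETV2 with the span trend removed (log2 difference -0.29, limma adjusted p = 0.101). There were 4 lower without CENPU 4, and 0 or 1 lower without any other single clone except CENPU 1.

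Of 7 measured genes of hemidesmosomes and plakins, MACF1 rose, 0 fell and 6 did not pass, and the list centred on a log2 difference of -0.02. Of 13 listed genes these 7 were the plakins named below and CD151, so hemidesmosome genes outside the plakins were hardly covered. The median was the value of EPPK1, a dim row that averaged 3.80 in CENPU clones and 3.82 in control clones. MACF1, the spectraplakin closest to DST, averaged 8.13 ± 0.56 in CENPU clones and 6.85 ± 0.39 in control clones (SD, n = 5 each), a log2 difference of 1.28 (limma adjusted p = 0.0143). The other plakins did not pass, with differences of 0.91 for DSP, 0.63 for PPL, -0.02 for EPPK1, -0.10 for PLEC and -0.19 for EVPL. DSP rose without CENPU 1 (limma adjusted p = 0.0223) or with array weights (limma adjusted p = 0.0446), and PPL without CENPU 5 (limma adjusted p = 0.0295). MACF1 did not pass without control 2, CENPU 7 and CENPU 13 (log2 difference 0.80, limma adjusted p = 0.0678).

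The genes next to each member on its chromosome were read as the nearest 5 measured protein-coding genes on either side. Of the 10 around AGR2 on chromosome 7, 3 rose, with log2 differences of 1.31 for ANKMY2, 0.85 for BZW2 and 0.76 for TSPAN13 (limma adjusted p = 0.00576 to 0.0313), and the median was 0.30. This was the highest count around any member, where 5.31% of all genes were higher, and a shared regional change was not tested. These 3 and AGR2 follow one another among the measured genes, and AGR3, the next after AGR2, did not pass. CALCOCO2 beside HOXB13 rose by 0.78 (limma adjusted p = 0.0123), and TIGD2 beside HERC3 by 0.38 (limma adjusted p = 0.0412). Without control 2, CENPU 7 and CENPU 13 BZW2 alone of these 5 passed, and the log2 difference was 0.73 for ANKMY2 and 0.50 for CALCOCO2. ANKMY2 passed only without CENPU 1, CENPU 4 or control 1 when single clones were left out, and TIGD2 only without CENPU 4 or control 1. TIGD2 also did not pass with all rows in the fit (limma adjusted p = 0.0540). The 10 neighbours of EGFR, of DST and of ETV5 held no call in limma, and their medians were 0.02, 0.05 and 0.02.

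The genes with the most similar profiles were found by root mean square distance between log2 values over the 10 clones, each gene centred on its own mean. OSBPL9 lay 0.07 from DST, followed by TMEM67 (0.10) and DPP8 (0.11), where the median gene lay at 0.58. MFF lay 0.06 from AGR2, with RPL41 (0.08), which has many near-identical copies, and BUD31 (0.09), against 0.36 for the median gene. The nearest to ETV5 were RIC1, ZNF830 and AGR2 at 0.10 each. Those nearest to HOXB13 were SCLT1, BTBD10 and EIF4E3 at 0.10 each, and those nearest to EGFR were PAPSS1 (0.14), UBR4 and CYFIP1 (0.15 each). HERC3 had the most distant nearest genes, TMEM154, HS3ST5 and ENY2 at 0.22 each. AGR2 and ETV5 were the closest pair among the 6, at 0.10, and HERC3 and DST the most distant, at 0.37.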

How the data were processed

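Total RNA of 10 PC-3 clones was measured on 1-channel Affymetrix arrays. The log2 values were deposited by the authors, made with Partek and RMA per the submitters' processing notes. RMA corrects background, applies quantile normalization between arrays and summarises probes. Values ran from 1.65 to 15.0, which fits a log2 scale that no source states. Arrays carry no counts or depth, and 5 clones per group limit precision.

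Of 53617 rows, 16098 had 1 symbol in the platform annotation, 0 several and 37519 none, and all 16098 matched RefSeq GRCh38.p14 by gene ID. The 14884 genes were each represented by the row of highest mean. Groups came from the sample titles. limma (3.58.1, R 4.3.3) was fitted to the named rows without covariates, with Benjamini-Hochberg adjustment and a threshold of 0.05. It was also run on simulated arrays with independent noise in each row. Such a run cannot test a trend shared across rows, such as the one with span. P-values measure the spread between clones.

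Members and lists were chosen with earlier results of these data known. Genes named from lists were up to 6 that passed, plus set names given whatever their values. In the luminal and basal lists, genes at an unadjusted p under 0.05 were named as well. Neighbouring genes were added afterwards. Equal clone numbers were checked as pairs: deviations of clones 1, 4 and 5 correlated at -0.37, 0.10 and 0.02 between groups, so they were not paired. Alternatives were quantile normalization, median centring, a dim-row filter, all rows, array weights, eBayes with trend, other thresholds, a clone-number block, the mean of rows, removal of the span trend and leaving out clones.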

Additional observations from a re-analysis of the deposited data

Results flagged for a closer look

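A clone stood far from the other 4 of its group in 8 of 106 groups of values examined over 53 named genes, where chance alone gives about 5.3. HOXB13 in CENPU 13 was 11.64, with the next CENPU clone at 11.26. In KRT8, CENPU 4 was 7.07 and the next CENPU clone 6.68. Control 2 was the distant clone for AGR3 (2.74, next 2.61), NRG2 (8.82, next 8.62) and TRIP12 (6.14, next 7.20). Control 3 was the distant clone for EGF (3.86, next 4.17), HOXB6 (6.87, next 6.10) and KLK3 (5.38, next 5.63).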

How the results depend on the processing

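All 6 genes stayed higher in CENPU clones under every alternative run, which is no test of the difference by which they were chosen. With no overlap of the groups, neither leaving out clones nor the block could reverse a sign. AGR2 gave no value under the filter on dim rows, because its row lay below the minimum of 4.69. HOXB13 ranged from 0.32 to 0.53 over all alternatives, AGR2 from 0.35 to 0.55, HERC3 from 0.57 to 1.05, EGFR from 0.65 to 0.96, DST from 0.69 to 1.03 and ETV5 from 0.35 to 0.60. With the replicate block by clone number, AGR2 differed by 0.35, HERC3 by 0.57 and ETV5 by 0.35, and 55 genes passed over the array against 1504 without it. The array-wide count was 253 at an adjusted p under 0.01, 2588 under 0.10, 470 without control 2, CENPU 7 and CENPU 13, and 613 to 2471 with 1 clone left out. The share of calls that were higher in CENPU clones was 44.2% after quantile normalization and 43.6% after median centring, against 52.6% as deposited.

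List medians moved mainly under the same settings. Under the block they were -0.044 for ETS factors, 0.015 for the EGFR list, 0.22 for hemidesmosome and plakin genes, 0.088 for the HOXB list and 0.13 for HECT ligases. Without control 2, CENPU 7 and CENPU 13 they were 0.012 for neuroendocrine genes, -0.045 for ETS factors, 0.048 for the EGFR list, 0.14 for hemidesmosome and plakin genes and 0.10 for HECT ligases. The filter on dim rows gave 0.31 for the EGFR list and 0.27 for hemidesmosome and plakin genes, over fewer genes. The block takes no difference from control 2, control 3, CENPU 7 and CENPU 13, whose clone numbers occur in 1 group only. It rests on clones 1, 4 and 5 of each group, so it overlaps with the setting that leaves out control 2, CENPU 7 and CENPU 13. The cause of the changes under both settings was not tested. Over the alternatives that kept all clones or left out control 2, CENPU 7 and CENPU 13, 0 to 7 HECT ligases and 0 to 3 luminal genes were higher. In the same alternatives 0 to 3 hemidesmosome and plakin genes were higher, and 0 to 3 ETS factors lower. The 10 list genes that passed, and the 5 neighbouring genes, all lost their calls with the block, which rests on fewer clones. NRG2 also lost its call with the mean of its 2 rows (log2 difference -0.32).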
